A study of Mus musculus with 24 samples.

Results

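The Kruppel-like factors described here were Klf2, Klf3, Klf4, Klf5, Klf6, Klf7, Klf9, Klf10, Klf13 and Klf15, 10 of the 19937 gene names tested in mouse skeletal muscle. They were found by the gene name that the array design gives each probe, and the family was chosen from earlier group comparisons of these same arrays, in which several of its members stood out. Their differences between groups are therefore given as a description, without a p-value. One-colour oligonucleotide arrays were used, 1 for each of 24 samples, with 8 mice per group. HFD_O3 mice were fed a high fat diet and belonged to the omega-3 lineage, HFD_Cont mice were fed it too but belonged to the control lineage, and STD_Cont mice of the control lineage were fed the low fat diet. No group combined the omega-3 lineage with the low fat diet, so HFD_O3 differed from STD_Cont in both diet and lineage. The labels do not say what defines the omega-3 lineage, and the kind of muscle, the hour of sampling and the age and sex of the animals are likewise not given in them. The tissue label was borne out by the skeletal muscle marker list, of which 10 of 10 genes were measured, with mean log2 levels between 7.59 for Ryr1 and 11.59 for Tnnt3.

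Kruppel-like factors are transcription factors that bind GC-rich and CACCC-type DNA through zinc fingers at their carboxyl end, while their amino-terminal parts recruit coactivators or corepressors. Many are made in short bursts after hormones, growth factors or blood flow change, and their proteins are removed quickly by ubiquitin ligases. Klf2 and Klf4 are induced by shear stress in endothelial cells through a MAP kinase and MEF2 pathway, Klf9 and Klf15 are induced by glucocorticoids, Klf15 promotes amino acid breakdown in muscle, and Klf10 is an early target of TGF-beta.

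The array carried 19 probes for these 10 genes, and 17 of them passed the filter on dim probes. A second Klf5 probe rose well above background on 0 of 24 arrays and a second Klf10 probe on 1 of 24, so each of these genes rests on a single probe, as do Klf2, Klf4, Klf6 and Klf15. The main probes lie, on the mm9 build given in the scanner files, at chr8:74845137-74845196 on the plus strand for Klf2 and at chr4:55540833-55540892 on the minus strand for Klf4. Those of Klf9, Klf10 and Klf15 lie at chr19:23240410-23240469 on the plus strand, chr15:38224255-38224314 on the minus strand and chr6:90424982-90425040 on the plus strand. Whether these probes lie in coding sequence or in a UTR was not analysed here.

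RefSeq promoter sequences on GRCm38.p6 were matched for 8 of the 10 genes, all but Klf5 and Klf10. The 250 bases before the gene start are shown for 2 pairs of genes whose levels moved together from array to array, Klf2 with Klf4 and Klf9 with Klf15. Capitals mark the motifs searched on both strands, CACCC, to which Kruppel-like factors bind (GGGTG when read from the other strand), and the MEF2-type motif CTANNNNTAG. The windows are chr8:72318812-72319061 on the plus strand for Klf2, chr4:55532476-55532725 on the minus strand for Klf4, chr19:23140976-23141225 on the plus strand for Klf9 and chr6:90462326-90462575 on the plus strand for Klf15.
Klf2: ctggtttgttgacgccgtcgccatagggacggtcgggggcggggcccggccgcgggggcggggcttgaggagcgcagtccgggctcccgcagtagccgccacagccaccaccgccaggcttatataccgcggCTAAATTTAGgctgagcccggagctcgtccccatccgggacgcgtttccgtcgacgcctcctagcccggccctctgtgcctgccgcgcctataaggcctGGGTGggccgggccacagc
Klf4: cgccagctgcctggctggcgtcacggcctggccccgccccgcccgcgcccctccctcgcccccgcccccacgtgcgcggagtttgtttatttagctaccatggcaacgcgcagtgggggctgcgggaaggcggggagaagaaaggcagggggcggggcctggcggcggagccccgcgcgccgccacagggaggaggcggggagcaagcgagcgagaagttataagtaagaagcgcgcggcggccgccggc
Klf9: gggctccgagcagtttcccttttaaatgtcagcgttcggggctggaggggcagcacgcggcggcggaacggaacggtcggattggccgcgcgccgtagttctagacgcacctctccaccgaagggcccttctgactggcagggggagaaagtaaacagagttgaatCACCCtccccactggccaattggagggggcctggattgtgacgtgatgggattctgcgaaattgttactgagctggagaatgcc
Klf15: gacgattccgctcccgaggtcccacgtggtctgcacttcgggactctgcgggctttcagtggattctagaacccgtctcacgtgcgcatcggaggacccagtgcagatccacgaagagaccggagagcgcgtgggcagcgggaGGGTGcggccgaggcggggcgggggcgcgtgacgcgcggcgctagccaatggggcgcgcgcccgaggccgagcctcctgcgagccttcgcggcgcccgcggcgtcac
The MEF2-type motif occurred in 3.20% of all 32851 promoter windows of this length and, among the 8 matched genes, in that of Klf2, where it begins 118 bases before the start. The motif CACCC occurred in 52.0% of all windows. It was found 5 times in the Klf3 window, 3 times in that of Klf7 and once each in those of Klf2, Klf9, Klf13 and Klf15. These letters were not found in the Klf4 and Klf6 windows. The GC content was 71.2% for Klf2, 74.0% for Klf4, 59.6% for Klf9 and 72.0% for Klf15, against a median of 52.4% over all windows.

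Levels are log2 processed signals minus the 75th percentile of the same array, so a level of 0 lies at that percentile and a difference of 1 is a doubling. The share of spots well above background was 52.0 to 60.7% per array, and the signal at the 75th percentile lay between 162 and 293. The arrays lay on 3 slides, each with 2 or 3 arrays of every group, and differences within a slide are given beside the pooled ones. HFD_O3 array 7 lay at the STD_Cont end of the first principal component, HFD_O3 array 1 lay apart on the next components, and 4 arrays with high white adipocyte scores shared row 1 of slide 2, namely HFD_O3 arrays 4 and 5 and HFD_Cont arrays 4 and 5. The 3 comparisons share groups of arrays, so their values are not independent of each other.

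Klf2 and Klf4 were highest in HFD_O3 muscle. Klf2 restrains inflammation and clotting in endothelial cells and keeps lymphocytes quiescent, and Klf4 acts in endothelial cells, smooth muscle and epithelial barriers. The Klf2 level was lowest at 3.51, median 3.92 and highest at 4.34 in HFD_O3 muscle, 2.60, 3.14 and 3.71 in HFD_Cont muscle, and 2.54, 2.90 and 3.38 in STD_Cont muscle. All 8 HFD_O3 arrays lay above every STD_Cont array, and 5 of 8 lay above the highest HFD_Cont array. The Klf4 level was 4.62, 4.76 and 5.02 (lowest, median and highest) in HFD_O3 muscle, 3.74, 4.24 and 4.52 in HFD_Cont muscle, and 3.41, 3.82 and 4.60 in STD_Cont muscle. For Klf4 the HFD_O3 arrays overlapped with neither other group, whereas the HFD_Cont and STD_Cont arrays overlapped widely.

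The fitted Klf2 difference was 0.77 ± 0.16 (SE, 8 arrays per group) on the log2 scale for HFD_O3 against HFD_Cont, a 1.70-fold higher signal, and 0.98 ± 0.16, or 1.97-fold, for HFD_O3 against STD_Cont. For Klf4 the same differences were 0.56 ± 0.14 (1.48-fold) and 0.84 ± 0.14 (1.79-fold). HFD_Cont against STD_Cont gave 0.21 ± 0.16 for Klf2 and 0.28 ± 0.14 for Klf4. In HFD_O3 against STD_Cont, Klf2 and Klf4 were the 2 members that passed the threshold over all names, where 0.406% of names passed as higher and 0.191% as lower. In HFD_O3 against HFD_Cont no member passed, and neither did any other name (0% higher and 0% lower). There 1413 names, or 7.09% of all, had an unadjusted p under 0.05, a cut that some names meet by chance. The family was picked on these contrasts, so nothing is read from the counts.

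**Figure D1:**
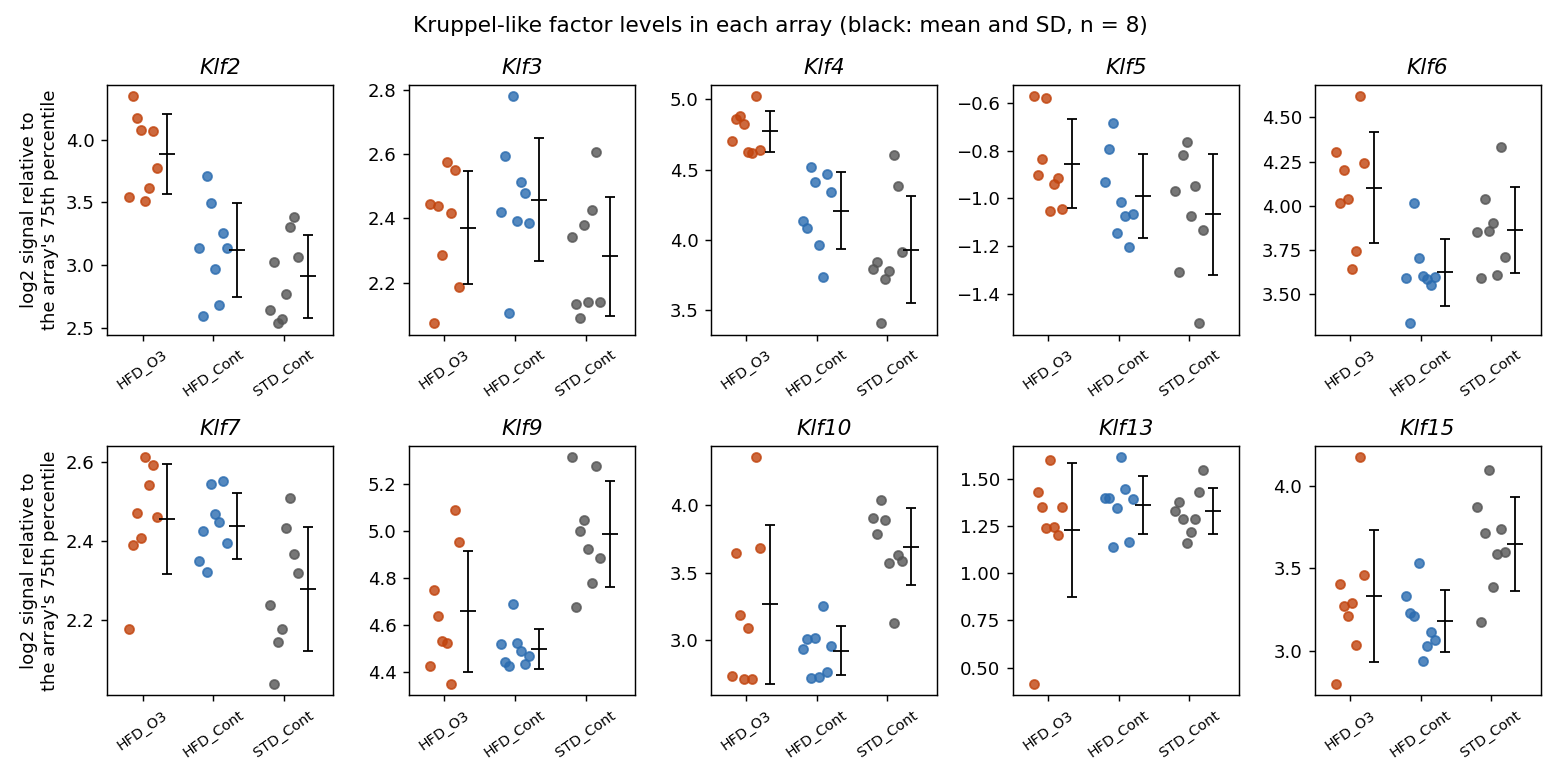
Level of each Kruppel-like factor in every array, as log2 signal relative to the 75th percentile of the array, with HFD_O3 on the left, HFD_Cont in the middle and STD_Cont on the right. Dots are arrays (8 per group), the black mark is the mean and its bar the SD. All HFD_O3 arrays lie above the other groups for Klf4. The HFD_O3 mean is the highest for Klf2, whose HFD_O3 arrays overlap with those of HFD_Cont but not with those of STD_Cont. STD_Cont medians are the highest for Klf9, Klf10 and Klf15.

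Within slides 1, 2 and 3, HFD_O3 minus HFD_Cont was 0.87, 0.50 and 0.90 for Klf2 and 0.57, 0.50 and 0.65 for Klf4. Both genes were thus higher in HFD_O3 muscle on every slide. Against STD_Cont, the HFD_O3 differences of Klf2 were 1.18, 1.11 and 0.67, and those of Klf4 were 0.999, 1.05 and 0.53, each smallest on slide 3. HFD_Cont minus STD_Cont did not keep its sign, at 0.31, 0.61 and -0.22 for Klf2 and 0.43, 0.55 and -0.12 for Klf4. On slide 3 the HFD_Cont mean was thus the lower one for both genes, while single arrays of the 2 groups overlapped.

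Endothelial cells are a small share of a muscle sample, and in bulk RNA fewer cells of a type and less RNA per cell cannot be told apart. The endothelial marker score, the mean of 10 marker genes each centred over the arrays, ranged from -0.01 to 0.20 in HFD_O3 muscle, from -0.20 to 0.16 in HFD_Cont muscle and from -0.25 to 0.24 in STD_Cont muscle. Of its 10 markers, 9 were higher on average in HFD_O3 than in HFD_Cont muscle and 8 were higher than in STD_Cont muscle, and 0 passed the threshold in either comparison. In HFD_Cont against STD_Cont 4 were higher, so the markers did not all move the same way. There 1 of them, Kdr, passed, at 0.45 ± 0.10, where 1.43% of all names passed as higher. Within groups the score correlated with Klf2 at r = 0.23 and with Klf4 at r = 0.01 over 24 arrays. With the score as a covariate, the HFD_O3 minus STD_Cont difference was 0.88 ± 0.19 for Klf2, which no longer passed, and 0.84 ± 0.16 for Klf4, which still did. In that fit 24 names passed, against 119 without the score.

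The MAP kinase, MEF2 and CCM pathway that controls Klf2 and Klf4 in endothelium was measured through 12 of 12 listed genes, of which 0 passed in any comparison. This list was not split by direction of action on Klf2 and Klf4. Its median log2 difference was -0.04 for HFD_O3 against HFD_Cont, where the median over all names was -0.01. The smallest p-values there belonged to Map2k5, the kinase that activates ERK5, at -0.13 ± 0.05, and to the transcription factor Mef2c at -0.13 ± 0.07. In HFD_Cont against STD_Cont, Mapk7, which encodes ERK5 itself, was at 0.17 ± 0.06 and Heg1, a CCM-binding receptor, at 0.23 ± 0.10. The same genes were at 0.16 ± 0.06 and 0.23 ± 0.10 in HFD_O3 against STD_Cont.

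Of 8 endothelial genes that lie under Klf2 and Klf4, 7 were measured. Nos3, the endothelial nitric oxide synthase, rose in both high fat groups. It averaged 2.43 ± 0.13 in HFD_O3 muscle, 2.43 ± 0.10 in HFD_Cont muscle and 2.12 ± 0.10 in STD_Cont muscle (SD, n = 8 each). Its differences from STD_Cont were 0.31 ± 0.06 for HFD_O3 (limma adjusted p = 0.011) and 0.31 ± 0.06 for HFD_Cont (limma adjusted p = 0.0103), while HFD_O3 and HFD_Cont differed by 0.00 ± 0.06. Aqp1, a water channel, fell by 0.28 in HFD_Cont against STD_Cont (SE 0.08, limma adjusted p = 0.0482). Hence 1 of 7 genes passed as higher and 1 as lower in HFD_Cont against STD_Cont, where 1.43% and 1.48% of all names did. In HFD_O3 against STD_Cont it was 1 as higher and 0 as lower, against 0.406% and 0.191% of all names. In HFD_O3 against HFD_Cont 0 passed. The list was not split into genes that Klf2 and Klf4 raise and genes that they lower, so its counts and median do not show whether targets followed them. The genes with the smallest p-values in HFD_O3 against HFD_Cont were the sphingosine phosphate receptor S1pr1 at 0.27 ± 0.15 and Aqp1 at 0.13 ± 0.08.

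Klf6, an injury-responsive factor, was on average also highest in HFD_O3 muscle but lay lowest in HFD_Cont muscle. Its level was 3.64, 4.12 and 4.62 (lowest, median and highest) in HFD_O3 muscle, 3.33, 3.59 and 4.01 in HFD_Cont muscle, and 3.59, 3.85 and 4.33 in STD_Cont muscle. Of the 8 HFD_O3 arrays, 6 lay above the highest HFD_Cont array, and the 3 groups overlapped. HFD_O3 minus HFD_Cont was 0.48 ± 0.12, HFD_Cont minus STD_Cont was -0.24 ± 0.12 and HFD_O3 minus STD_Cont was 0.24 ± 0.12. By slide, HFD_O3 minus HFD_Cont was 0.53, 0.15 and 0.85, so that direction held on each slide while the size varied widely. HFD_O3 minus STD_Cont was 0.45, -0.12 and 0.55 on slides 1, 2 and 3, so its direction did not hold on slide 2. Without HFD_O3 array 7, HFD_O3 minus HFD_Cont was 0.40 ± 0.12 and HFD_O3 minus STD_Cont was 0.17 ± 0.12.

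**Figure D2:**
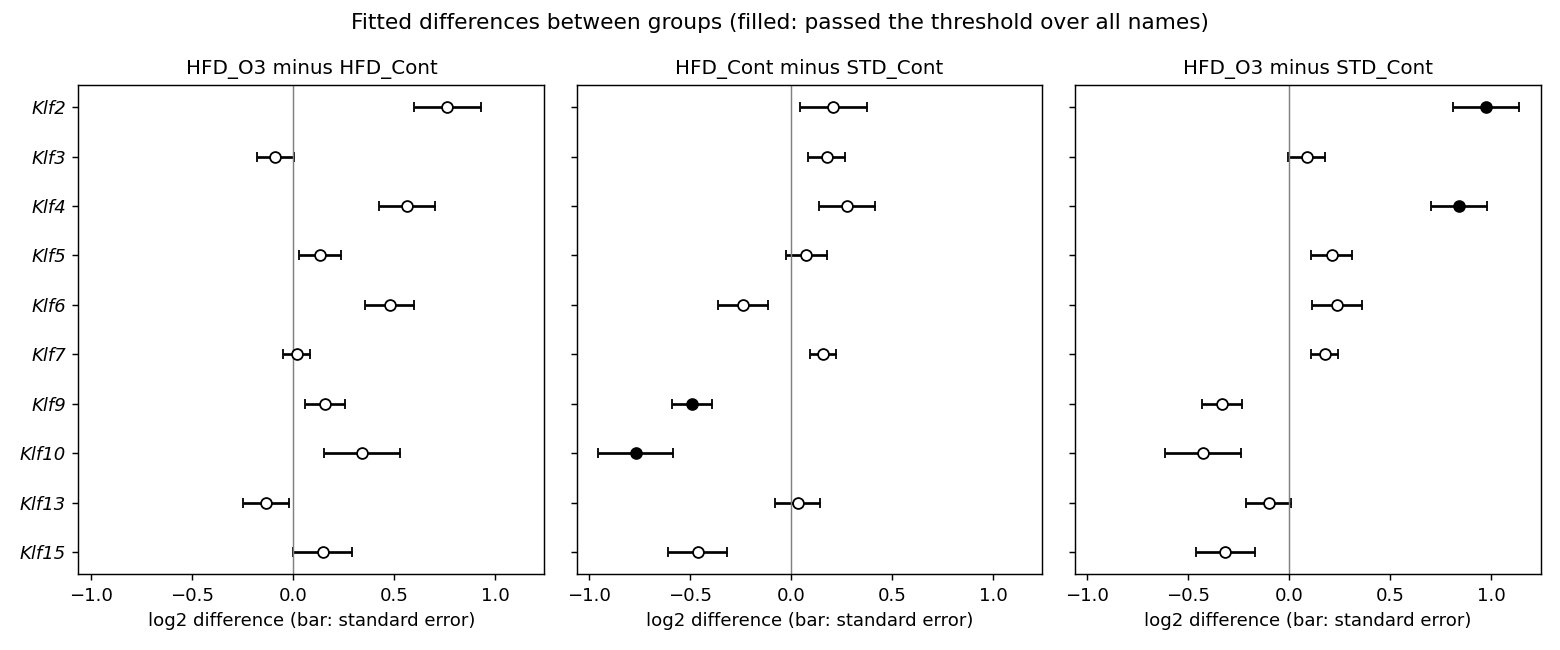
Fitted log2 difference of each Kruppel-like factor for HFD_O3 minus HFD_Cont (left), HFD_Cont minus STD_Cont (middle) and HFD_O3 minus STD_Cont (right), with bars for the standard error over 24 arrays. Filled circles passed the threshold over all names, which were Klf9 and Klf10 in the middle panel and Klf2 and Klf4 in the right panel.

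Klf9, Klf10 and Klf15 were lower in HFD_Cont than in STD_Cont muscle. Klf9 is a hormone-responsive factor induced by glucocorticoids and thyroid hormone. Its level was 4.35, 4.58 and 5.09 (lowest, median and highest) in HFD_O3 muscle, 4.42, 4.48 and 4.69 in HFD_Cont muscle, and 4.68, 4.96 and 5.31 in STD_Cont muscle. The HFD_Cont arrays lay close together, with an SD of 0.09 against 0.26 in HFD_O3 and 0.22 in STD_Cont muscle, and 7 of 8 lay below the lowest STD_Cont array. The exception was HFD_Cont array 4.

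Klf10, a repressor that works with Sin3a, was at 2.71, 3.14 and 4.35 (lowest, median and highest) in HFD_O3 muscle, 2.72, 2.95 and 3.25 in HFD_Cont muscle, and 3.13, 3.71 and 4.04 in STD_Cont muscle. Again 7 of 8 HFD_Cont arrays lay below the lowest STD_Cont array, while the HFD_O3 arrays spread over the range of both groups. Klf15, which drives genes of branched-chain amino acid breakdown, was at 2.80, 3.28 and 4.17 in HFD_O3 muscle, 2.94, 3.17 and 3.53 in HFD_Cont muscle, and 3.18, 3.66 and 4.10 in STD_Cont muscle. All 8 HFD_Cont arrays were under the STD_Cont median for Klf15, and 4 of 8 were under the lowest STD_Cont array.

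HFD_Cont minus STD_Cont was -0.49 ± 0.10 for Klf9 (0.713-fold), -0.77 ± 0.19 for Klf10 (0.587-fold) and -0.46 ± 0.15 for Klf15 (0.726-fold). Klf9 and Klf10 were the 2 members that passed here, where 1.43% of names passed as higher and 1.48% as lower. HFD_O3 minus STD_Cont was -0.33 ± 0.10 for Klf9, -0.43 ± 0.19 for Klf10 and -0.31 ± 0.15 for Klf15, and none of the 3 passed. HFD_O3 minus HFD_Cont was 0.16 ± 0.10, 0.34 ± 0.19 and 0.15 ± 0.15 for Klf9, Klf10 and Klf15. A second Klf9 probe gave -0.54 ± 0.11 for HFD_Cont minus STD_Cont, close to the first.

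On slides 1, 2 and 3, HFD_Cont minus STD_Cont was -0.53, -0.38 and -0.52 for Klf9, -0.96, -0.96 and -0.46 for Klf10, and -0.26, -0.49 and -0.57 for Klf15. All 9 of these values were negative. HFD_O3 minus STD_Cont was negative on slides 1 and 2 for each of the 3 genes but 0.04, 0.57 and 0.17 on slide 3 for Klf9, Klf10 and Klf15, where HFD_O3 had 2 arrays. One of them, array 7, was the highest HFD_O3 array for Klf9, Klf10 and Klf15. The other, array 8, was set against the 3 STD_Cont arrays of slide 3. It lay above them for Klf10 (3.68), among them for Klf9 (4.95) and below them for Klf15 (3.46). Without array 7 the HFD_O3 minus STD_Cont differences were -0.39 ± 0.09 for Klf9, which then passed, -0.58 ± 0.15 for Klf10 and -0.43 ± 0.12 for Klf15. HFD_O3 minus HFD_Cont then moved to 0.10 ± 0.09, 0.19 ± 0.15 and 0.03 ± 0.12 for the 3 genes, and Klf15 passed in HFD_Cont against STD_Cont, with the same difference and an SE of 0.11.

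Leaving out any 1 array in turn, the difference lay between -0.53 and -0.44 for Klf9, which passed in 24 of 24 fits. For Klf10 it lay between -0.85 and -0.72, and the gene passed in 19 of 24 fits, failing without HFD_Cont array 5 or 7 or STD_Cont array 1, 3 or 4. The family was picked on these same arrays, so such counts describe how far a call hung on 1 array and lend it no support. Without the 4 adipocyte-rich arrays of slide 2, the difference was -0.52 ± 0.11 for Klf9 and -0.75 ± 0.21 for Klf10, and neither passed. With slide and array row together in a block it was -0.51 ± 0.13 for Klf9 and -0.70 ± 0.24 for Klf10, and again neither passed. Fewer names of any kind passed in these fits, 58 and 73, against 581 in the main fit.

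**Figure D3:**
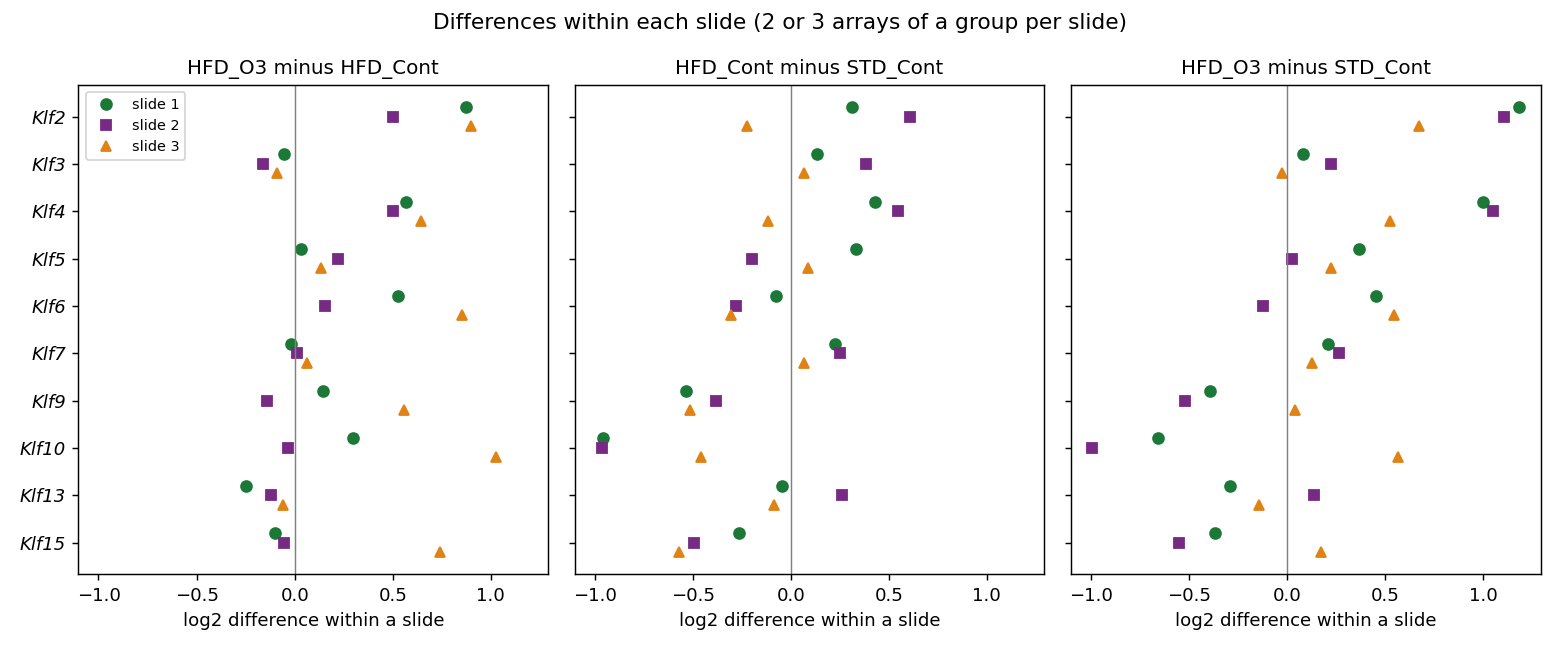
Log2 difference of each Kruppel-like factor within slide 1 (green circles), slide 2 (purple squares) and slide 3 (orange triangles) for HFD_O3 minus HFD_Cont (left), HFD_Cont minus STD_Cont (middle) and HFD_O3 minus STD_Cont (right). Each slide held 2 or 3 arrays of a group. Klf2 and Klf4 lie right of 0 on all slides in the left and right panels, and Klf9, Klf10 and Klf15 lie left of 0 on all slides in the middle panel.

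Of 9 listed genes of the glucocorticoid response, which also induces Klf9 and Klf15, 5 passed as lower and 0 as higher in HFD_Cont against STD_Cont muscle. Over all names, 1.48% passed as lower and 1.43% as higher there. The list was chosen with earlier results of these data known, so its count is a description. All 9 were measured, with a median difference of -0.77 where the median over all names was 0.00. Fkbp5, a cochaperone of the glucocorticoid receptor, averaged 3.44 ± 0.37 in HFD_Cont muscle and 4.84 ± 0.54 in STD_Cont muscle (SD, n = 8 each), a difference of -1.41 ± 0.32 (limma adjusted p = 0.0215). Zbtb16 fell by 0.77 (SE 0.14, limma adjusted p = 0.0103). The repressor Tsc22d3 fell by 0.32 (SE 0.09, limma adjusted p = 0.041) and the metallothionein Mt2 by 0.85 (SE 0.23, limma adjusted p = 0.0441). Cebpd also passed, at -1.51 ± 0.41 (limma adjusted p = 0.0473). The last 3 genes thus lay just under the threshold. The receptor gene itself, Nr3c1, was at 0.05 ± 0.06. In HFD_O3 muscle none of the 9 passed against either group. The median was -0.46 for HFD_O3 against STD_Cont, where Zbtb16 at -0.58 ± 0.14 and Fkbp5 at -0.97 ± 0.32 had the smallest p-values. For HFD_O3 against HFD_Cont it was 0.39, where the median over all names was -0.01, and 8 of the 9 differences were positive. The HFD_O3 arrays spread more widely, with SDs of 0.96 against 0.37 in HFD_Cont for Fkbp5, 1.34 against 0.41 for Cebpd and 1.69 against 0.54 for Ddit4. Only Nr3c1 spread less in HFD_O3, at 0.09 against 0.10. Their differences were 0.43 ± 0.32 for Fkbp5, 0.58 ± 0.41 for Cebpd and 0.65 ± 0.52 for Ddit4. Whether single arrays carried these shifts was not tested. The smallest p-values for HFD_O3 against HFD_Cont belonged to the clock gene Per1, at 0.81 ± 0.20, and to Nr3c1, the one gene below 0, at -0.11 ± 0.06.

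Of 12 amino acid and glucose genes linked to Klf15, 11 were measured. Prodh, the first enzyme of proline breakdown, averaged 1.68 ± 0.15 in HFD_Cont muscle and 2.45 ± 0.22 in STD_Cont muscle (SD, n = 8 each) and fell by 0.77 (SE 0.19, limma adjusted p = 0.0269). It was the only gene of the list to pass in that comparison, where 1.48% of all names passed as lower. The list's median was -0.08 and that of all names 0.00. In HFD_O3 against STD_Cont the glucose transporter Slc2a4 fell by 0.21 (SE 0.05, limma adjusted p = 0.0489). No other gene of the list passed there, where 0.191% of all names passed as lower. The branched-chain amino acid genes Bcat2, Bckdha, Bckdhb and Dbt had differences between -0.17 and -0.05 for HFD_Cont against STD_Cont, and none passed. In HFD_O3 against HFD_Cont, 0 of 11 passed, with Tat at -0.20 ± 0.18 and Prodh at 0.20 ± 0.19 having the smallest p-values.

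The TGF-beta pathway, which induces Klf10, was measured through 9 of 9 listed genes, and 0 passed in any comparison. Its ligand Tgfb2 was at 0.37 ± 0.10 and the signal transducer Smad3 at 0.32 ± 0.14 for HFD_Cont against STD_Cont. For HFD_O3 against HFD_Cont, Smad3 was at -0.41 ± 0.14 and the inhibitor Smad7 at -0.15 ± 0.08. Smad7 was at -0.19 ± 0.08 and Tgfb2 at 0.21 ± 0.10 for HFD_O3 against STD_Cont.

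Klf3, Klf5, Klf7 and Klf13 differed by at most 0.21 between groups on their main probes, and none passed there. Klf3, a repressor that recruits CtBP proteins, was at 2.07, 2.43 and 2.57 (lowest, median and highest) in HFD_O3 muscle, 2.11, 2.45 and 2.78 in HFD_Cont muscle, and 2.09, 2.24 and 2.61 in STD_Cont muscle. Klf5, which acts in smooth muscle and early fat cell differentiation, was at -1.05, -0.91 and -0.57 in HFD_O3 muscle, -1.20, -1.04 and -0.68 in HFD_Cont muscle, and -1.52, -1.02 and -0.76 in STD_Cont muscle. For both genes the 3 groups overlapped over most of their range. The fitted differences of Klf3 were -0.09 ± 0.09 for HFD_O3 against HFD_Cont, 0.18 ± 0.09 for HFD_Cont against STD_Cont and 0.09 ± 0.09 for HFD_O3 against STD_Cont, and those of Klf5 were 0.14 ± 0.10, 0.08 ± 0.10 and 0.21 ± 0.10.

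Klf7, known for its role in neurons, gave different answers by probe. Its brightest probe was at 2.18, 2.47 and 2.61 (lowest, median and highest) in HFD_O3 muscle, 2.32, 2.44 and 2.55 in HFD_Cont muscle, and 2.04, 2.28 and 2.51 in STD_Cont muscle, with differences from STD_Cont of 0.18 ± 0.07 for HFD_O3 and 0.16 ± 0.07 for HFD_Cont that did not pass. The second probe gave 0.36 ± 0.07 for HFD_O3 and 0.29 ± 0.07 for HFD_Cont against STD_Cont, and both passed when each of 29245 probes was tested on its own. In those fits 161 of the 29245 probes passed for HFD_O3 and 781 for HFD_Cont, each against STD_Cont. The remaining, dimmer probe gave 0.31 ± 0.12 and 0.33 ± 0.12. All 3 probes were higher in both high fat groups than in STD_Cont muscle, and HFD_O3 and HFD_Cont differed by at most 0.07 on any of them.

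Klf13, best known from T lymphocytes, was at 0.41, 1.30 and 1.60 (lowest, median and highest) in HFD_O3 muscle, 1.14, 1.39 and 1.61 in HFD_Cont muscle, and 1.16, 1.31 and 1.54 in STD_Cont muscle. The lowest HFD_O3 value came from array 1 and lay far below the others. HFD_O3 minus HFD_Cont was -0.13 ± 0.11 with that array and -0.02 ± 0.07 without it. The coordinates of this brightest probe run on the plus strand of chromosome 7, opposite to the RefSeq gene, so its transcript is uncertain. The brighter of its 2 minus strand probes gave -0.17 ± 0.07 for HFD_O3 against HFD_Cont, 0.16 ± 0.07 for HFD_Cont against STD_Cont and -0.01 ± 0.07 for HFD_O3 against STD_Cont. The dimmer one gave -0.09 ± 0.17, -0.21 ± 0.17 and -0.30 ± 0.17 for the same comparisons, so these probes differed in sign for HFD_Cont against STD_Cont. None of these differences passed.

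Klf5 and Klf15 act in fat cell precursors. Of 9 listed adipogenic factors, none passed in either HFD_O3 comparison. In HFD_Cont against STD_Cont muscle 2 passed as lower, where 1.48% of all names did. These were Cebpb, which averaged 4.68 ± 0.09 in HFD_Cont muscle and 5.32 ± 0.14 in STD_Cont muscle (SD, n = 8 each) and fell by 0.65 (SE 0.13, limma adjusted p = 0.0145), and Cebpd, which the glucocorticoid list also holds. In HFD_O3 against HFD_Cont, Cebpb was at 0.26 ± 0.13 and Dlk1, an inhibitor of adipogenesis, at 0.35 ± 0.21. In HFD_O3 against STD_Cont, Zfp423 was at -0.28 ± 0.08 and Cebpb at -0.38 ± 0.13. The white adipocyte marker score, over 8 of 8 markers, ranged from -1.29 to 1.64 in HFD_O3 muscle, from -1.08 to 1.83 in HFD_Cont muscle and from -1.42 to 1.21 in STD_Cont muscle. With that score as a covariate, HFD_Cont minus STD_Cont was -0.49 ± 0.11 for Klf9, which passed, and -0.74 ± 0.20 for Klf10, which did not. In that fit 370 names passed, against 581 without the score.

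No other Kruppel-like factor passed. Of 7 further Kruppel-like factors on the array, Klf11, Klf12 and Klf16 passed the filter, and Klf1, Klf8, Klf14 and Klf17 reached that level on at most 3 of 24 arrays. Among the 3 tested, Klf12 had the smallest p-value in HFD_O3 against HFD_Cont, at -0.17 ± 0.09, and in HFD_Cont against STD_Cont, at 0.21 ± 0.09. In the related Sp family 7 of 9 genes were tested and 0 passed, with Sp2 at -0.19 ± 0.06 for HFD_Cont and -0.21 ± 0.06 for HFD_O3, each against STD_Cont. The 10 corepressors and coactivators, all measured, also had 0 that passed. Among them Sin3a, the corepressor scaffold used by Klf10, was at 0.10 ± 0.07 for HFD_O3 against HFD_Cont, -0.22 ± 0.07 for HFD_Cont against STD_Cont and -0.12 ± 0.07 for HFD_O3 against STD_Cont.

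Among 5 ubiquitin ligases that act on Kruppel-like factor proteins, 1 passed. Fbxw7, the substrate receptor that marks KLF2 and KLF5 for degradation, averaged 3.02 ± 0.09 in HFD_O3 muscle, 3.23 ± 0.08 in HFD_Cont muscle and 2.97 ± 0.08 in STD_Cont muscle (SD, n = 8 each). It rose by 0.26 ± 0.05 in HFD_Cont against STD_Cont (limma adjusted p = 0.0103), where 1.43% of all names passed as higher. HFD_O3 minus HFD_Cont was -0.21 ± 0.05 and did not pass (limma adjusted p = 0.341), and HFD_O3 minus STD_Cont was 0.04 ± 0.05.

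Several Kruppel-like factors are themselves immediate early genes, and 14 of 15 other immediate early genes were measured. Nr4a1, an orphan nuclear receptor induced by contraction, rose by 0.66 ± 0.13 in HFD_O3 (limma adjusted p = 0.014) and by 0.65 ± 0.13 in HFD_Cont muscle (limma adjusted p = 0.0139), each against STD_Cont. Fosl2, an AP-1 subunit, averaged 1.34 ± 0.24 in HFD_O3 muscle, 0.96 ± 0.15 in HFD_Cont muscle and 0.90 ± 0.18 in STD_Cont muscle (SD, n = 8 each), and rose by 0.44 ± 0.09 in HFD_O3 against STD_Cont (limma adjusted p = 0.0312). These were the only 2 genes of the list to pass in that comparison, where 0.406% of all names passed as higher. Nr4a1 was the only one in HFD_Cont against STD_Cont, where 1.43% of all names passed as higher. In HFD_O3 against HFD_Cont none passed. There 12 of 14 were positive, with a list median of 0.28 where the median over all names was -0.01. Fosl2 was at 0.38 ± 0.09 and Junb at 0.34 ± 0.16 there.

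Within groups, Klf2 with Klf4 and Klf9 with Klf10 and Klf15 were the members closest to each other over the 24 arrays, after each group's mean was taken off. All arrays share the same scaling and differ in depth, so these values are descriptions. Klf2 and Klf4 correlated at r = 0.81, and at 0.785 or above with any 1 array left out. Klf9 correlated with Klf15 at r = 0.79 and with Klf10 at r = 0.73, and Klf10 with Klf15 at r = 0.70. The last value fell to 0.48 without HFD_O3 array 7, and that of Klf9 with Klf10 to 0.62. Klf6 correlated with Klf9 at r = 0.63, or 0.51 without HFD_O3 array 7, and with Klf2 at r = 0.37. Across these sets, Klf2 and Klf10 were at r = -0.06 and Klf4 and Klf9 at r = 0.10.

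**Figure D4:**
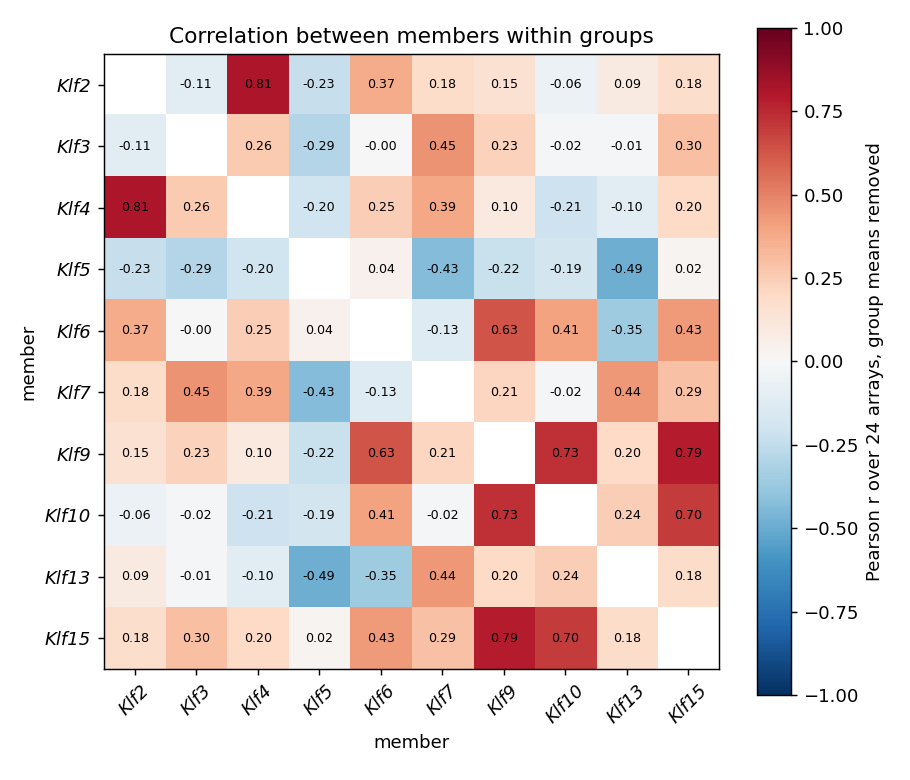
Pearson correlation between Kruppel-like factors over 24 arrays after group means were removed, with red for positive and blue for negative values. The strongest cells join Klf2 with Klf4 (0.81) and Klf9 with Klf15 (0.79) and Klf10 (0.73).

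The genes most like each member were sought among 14899 symbols by the same within-group correlation. For Klf4 the closest were Klf2, Id1 (r = 0.80), a BMP-induced inhibitor of helix-loop-helix factors, and Ppip5k1 (r = 0.80). Id1 differed by 0.55 between HFD_O3 and HFD_Cont and by 0.99 between HFD_O3 and STD_Cont, whereas Ppip5k1 differed by -0.08 and -0.07. For Klf2 they included Klf4 and Atxn10 (r = 0.77). Id1 was therefore highest on average in HFD_O3 muscle, as Klf2 and Klf4 were, and Ppip5k1 and Atxn10 were not. HFD_Cont minus STD_Cont was 0.44 for Id1, larger than the 0.21 of Klf2 and the 0.28 of Klf4.

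For Klf9 the closest gene was Foxo1 (r = 0.93 within groups and 0.96 over all arrays), the insulin-restrained transcription factor of fasting and atrophy, followed by Galnt15 and Zscan26 (both r = 0.88 or above). Foxo1 differed by 0.20 for HFD_O3 against HFD_Cont, -0.64 for HFD_Cont against STD_Cont and -0.45 for HFD_O3 against STD_Cont. For Klf10 they were Lpin1 (r = 0.94), a phosphatidate phosphatase of lipid metabolism, Sec24a (r = 0.94) and Nt5dc3 (r = 0.92). Lpin1 was at 0.27, -0.52 and -0.26 in the same 3 comparisons. For Klf15 they were Tango2 (r = 0.92), Gucd1 (r = 0.90) and the interleukin-6 receptor gene Il6ra (r = 0.90), of which Il6ra was at -0.998 for HFD_Cont against STD_Cont. HFD_O3 array 7 carried part of these values, and without it they stayed at 0.819 or above.

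**Figure D5:**
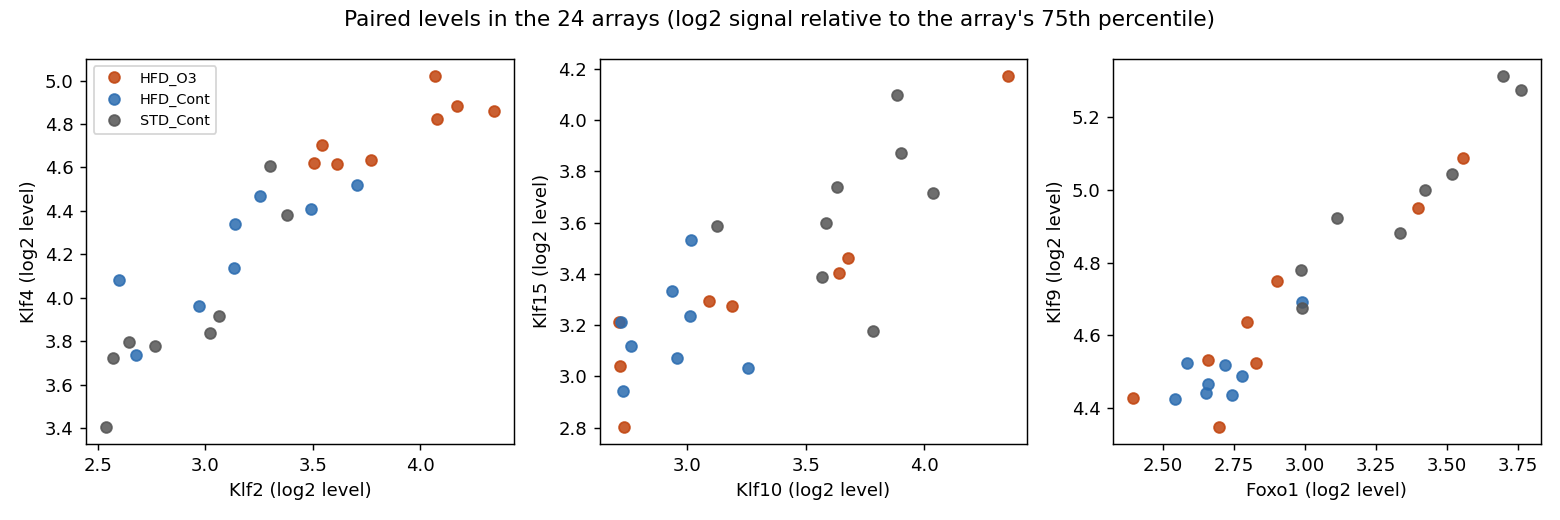
Levels of Klf4 against Klf2 (left), Klf15 against Klf10 (middle) and Klf9 against Foxo1 (right) in 24 arrays, as log2 signal relative to the 75th percentile of the array, with HFD_O3 in orange, HFD_Cont in blue and STD_Cont in grey. Klf2 and Klf4 rise together with HFD_O3 arrays at the top, and HFD_Cont arrays gather at low Klf9 and Foxo1 levels.

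Klf6 was closest to Pik3c2a (r = 0.82), Trp53inp1 (r = 0.81) and the death receptor gene Fas (r = 0.79), and Klf3 to Ptpn9 (r = 0.72), Elf4 (r = 0.69) and Inpp5d (r = 0.68). Klf5 was closest to Tcea3 (r = 0.72), Ptdss2 (r = 0.70) and Cd2 (r = 0.66), and Klf7 to Xpo5 (r = 0.76), Stk4 (r = 0.75) and Phactr2 (r = 0.74). For Klf13 they were Rnf34 (r = 0.91), Sgf29 (r = 0.87) and Art3 (r = 0.86), and the last 3 values fell to 0.79, 0.68 and 0.74 without HFD_O3 array 1, the array with the low Klf13 level.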

How the data were processed

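Total RNA of 24 muscle samples was hybridised to one-colour Agilent arrays, labelled with Cy3 per the labels' protocols. Agilent Feature Extraction 10.10.1.1 read the images, per the file headers, which place probes on mm9. The intensity values deposited per spot had been background-subtracted and detrended by that software. The value table of the authors, deposited in log2 units and made with limma per the submitters' processing notes, served as an alternative.

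Spots marked as outliers were dropped, replicate spots averaged, and the log2 processed intensity scaled by each array's 75th percentile. Of 56605 probes, 29245 were well above background on at least 6 of 8 arrays of at least 1 group. The brightest probe stood for each of 19937 names, with symbols updated through RefSeq accessions for 32994 probes. A model with no block was fitted to all 24 arrays with limma 3.58.1 (R 4.3.3; lmFit, eBayes, two-sided). A gene passed where its p, adjusted over all names by Benjamini-Hochberg, was under 0.05. Having 8 arrays per group limits precision.

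The members and gene lists were chosen with earlier results of these data known. Named were all members, up to 4 genes of each list that passed per comparison (otherwise up to 2 with the smallest p), and for each member the 3 symbols with the highest within-group correlation, of which 1 is not reported here. Replicate numbers did not pair arrays (same-numbered arrays correlated over 0.1 in 2 of 8 pairs per comparison), so no block was used. The fit was tested on simulated data. Alternatives were other background corrections, normalizations, filters, probe rules, blocks, covariates and array removals. Figures used matplotlib 3.10.9 and tables pandas 2.3.3.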

Additional observations from a re-analysis of the deposited data

Results flagged for a closer look

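Each of 30 groups of 8 arrays (10 members in 3 groups) was checked for an array far from the others, meaning a gap to its neighbour above 0.526 of the group's range, and 2 were found, where chance gives about 1 in 20. Klf13 was at 0.41 in HFD_O3 array 1, with the next lowest array at 1.20. Klf9 was at 4.69 in HFD_Cont array 4, with the next highest array at 4.52.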

How the results depend on the processing

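Each count of members that passed was recomputed under 24 other settings and with each array left out. These fits reuse the arrays on which the family was picked, so the counts are descriptions. The count for HFD_O3 against HFD_Cont was 0 under all 24 and in all 24 fits with an array left out. For HFD_Cont against STD_Cont it was 1 (Klf9) with median scaling, with no filter on dim probes or after adjusting for the white adipocyte score, and 0 when slide and array row formed a block, without the 4 arrays of slide 2 row 1 (chosen after seeing the data) or on any of the 3 slides alone. For HFD_O3 against STD_Cont it was 1 (Klf4) when slide and array row formed a block or after adjusting for the endothelial score, and 0 on any of the 3 slides alone. A slide holds 8 arrays, and no name passed on a slide alone. Leaving out an array gave 1 to 3 members for HFD_Cont against STD_Cont and 2 to 3 for HFD_O3 against STD_Cont. A replicate block gave 0, 2 and 2 members, the same genes. No member that passed changed sign in these fits. The count for HFD_Cont against STD_Cont was 3 with Klf7 added (with each probe tested singly, or averaging a gene's probes) and with Klf15 added (only the 2 groups compared, array weights, or without HFD_O3 arrays 1 and 7). With each probe tested singly, Klf7 also made 3 for HFD_O3 against STD_Cont. The cause of these shifts was not tested, and the names that passed ranged from 0 to 1238, against 581, in HFD_Cont against STD_Cont and from 0 to 343, against 119, in HFD_O3 against STD_Cont. Counting each member in each comparison and fit apart, a call was lost 26 times and gained 7 times. Without the slide 2 row 1 arrays, 3 list medians moved by more than the spread between arrays. They came to -0.03 (endothelial genes under Klf2 and Klf4, 0.11 with all arrays) and -0.11 (TGF-beta pathway, -0.03 with all arrays) for HFD_O3 against HFD_Cont, and to 0.05 (the same endothelial genes, -0.17 with all arrays) for HFD_Cont against STD_Cont. Klf5 rests on 1 probe, since its second probe was too dim to check it. The probe used was well above background on 24 of 24 arrays, at levels below the 75th percentile.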
